A study of Mus musculus with 8 samples.

Results

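Regions of open chromatin next to 52 axon guidance genes were compared between 4 populations of mouse mesoderm. The genes were 7 class 3 semaphorins, 11 semaphorins of classes 4 to 7, 9 plexins, 5 ephrin-A and 3 ephrin-B ligands, 6 EphA and 4 EphB receptors, 3 Slit ligands with 2 Robo receptors, and netrin 1 (Ntn1) with its receptor Unc5b. A region belonged to a gene when the gene's span was the protein-coding span nearest to the region's midpoint and the midpoint lay inside it or within 100 kb of it. Under this rule 1182 of the 168842 regions belonged to the guidance genes, from 1 region each for Sema4c and Plxna3 to 113 for Slit3. Of these, 806 lay inside a gene, 54 within 1 kb of a gene end and 322 outside. The rule used gene names and positions, not the measured values. The nearest gene need not be the one a region acts on, and no exon or intron annotation was used here, so "inside" means inside the gene span.

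The cells were mouse embryonic stem cells grown as embryoid bodies, 3-dimensional aggregates that form mesoderm, and sorted on day 4 for FLK1 and PDGFRalpha. ATAC-seq, in which the enzyme Tn5 inserts adapters into open chromatin, was run on 50000 sorted cells per library. WT_DP and WT_SP came from the wildtype A2lox.Cre line and were PDGFRalpha+FLK1+ (double positive) and PDGFRalpha-FLK1+ (single positive). Etv2KO_DP came from a line with Etv2 knocked out and carried the PDGFRalpha+FLK1+ surface markers, and Etv2OE_SP were PDGFRalpha-FLK1+ cells of the iETV2 line, given doxycycline at 2 ug/ml from day 2.5. Etv2 is an ETS-family transcription factor needed for endothelial and blood development. Each group had 2 libraries. Whether the 2 came from separate cultures is not stated in the labels. The spread behind each p-value is that between the 2 libraries of a group, pooled over all 4 groups, and may be technical. The spread of every group thus enters every comparison, also those that leave the group out. Line goes with genotype, and in Etv2OE_SP also with doxycycline, so these cannot be told apart.

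Guidance genes encode ligand and receptor pairs that steer growing axons and migrating cells. Semaphorins signal through plexins, the class 3 members mostly with neuropilins as co-receptors. Ephrins are held in the membrane and signal to Eph receptors on touching cells, Slits bind Robo receptors, and netrins bind receptors such as Dcc and the Unc5 family. The same pairs act in blood vessels: Sema3e on Plxnd1 guides sprouts, Efnb2 marks arterial and Ephb4 venous endothelium, and Unc5b is carried by endothelial tip cells.

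Promoter sequences are shown for 2 pairs whose partners meet on vessels, because their promoter regions gave different outcomes under Etv2 induction: that of Plxnd1 rose, that of Sema3e fell, and those of Efnb2 and Ephb4 were not called. Each is the 250 bases before the RefSeq start on the gene's own strand, in build GRCm38.p6 (mm10): chr6:115995006-115995255 (minus strand) for Plxnd1, chr5:14025026-14025275 (plus) for Sema3e, chr8:8661243-8661492 (minus) for Efnb2 and chr5:137349859-137350108 (plus) for Ephb4. Capitals mark ACTTCC, the reverse complement of the searched ETS motif GGAAGT. The shorter letters GGAA, which also stand in these sequences, were not counted or marked.
Plxnd1: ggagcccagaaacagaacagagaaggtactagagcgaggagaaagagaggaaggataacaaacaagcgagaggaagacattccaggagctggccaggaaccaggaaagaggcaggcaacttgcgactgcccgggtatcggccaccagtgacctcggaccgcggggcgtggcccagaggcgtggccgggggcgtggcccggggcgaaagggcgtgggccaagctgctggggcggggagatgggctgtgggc
Sema3e: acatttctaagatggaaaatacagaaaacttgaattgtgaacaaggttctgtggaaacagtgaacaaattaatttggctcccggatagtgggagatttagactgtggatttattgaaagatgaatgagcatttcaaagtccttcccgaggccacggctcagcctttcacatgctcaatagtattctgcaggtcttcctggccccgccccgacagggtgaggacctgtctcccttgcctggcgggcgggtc
Efnb2: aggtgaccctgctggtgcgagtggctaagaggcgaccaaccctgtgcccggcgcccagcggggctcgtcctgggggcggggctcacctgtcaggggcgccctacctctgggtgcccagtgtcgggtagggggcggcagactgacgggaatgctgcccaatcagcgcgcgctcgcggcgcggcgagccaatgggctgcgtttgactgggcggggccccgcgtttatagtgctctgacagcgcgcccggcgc
Ephb4: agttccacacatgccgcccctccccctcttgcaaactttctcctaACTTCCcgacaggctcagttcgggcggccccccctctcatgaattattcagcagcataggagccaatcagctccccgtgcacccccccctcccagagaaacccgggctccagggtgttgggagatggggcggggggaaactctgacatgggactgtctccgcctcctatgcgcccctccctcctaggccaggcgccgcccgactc
The full GGAAGT stood once, in the Ephb4 promoter, 205 bases before the start. RefSeq windows were matched for 44 of the 52 genes, 60 windows in all. GGAAGT on either strand was in 11 of these 60 (18.3%) and in 19.7% of all 32851 windows. The longer CCGGAAGT, which contains GGAAGT, was in 0 of the 60 and in 2.88% of all. The forkhead motif GTAAACA was in 0 of 60 (3.17% of all) and the GATA motif AGATAA in 3 of 60 (9.99% of all). GC content had a median of 64.2% in guidance windows and 52.4% in all. These are letter matches, not bound sites.

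Values are reads per region divided by 1 factor per library, called normalized reads here, and replicate 1 is always given first. Libraries held 12477601 to 18853733 reads, with a median of 27 to 42 per region. An Etv2 region at chr7:30634628-30635028 held 563 and 611 normalized reads in WT_DP, 475 and 493 in WT_SP, 425 and 645 in Etv2OE_SP and 0.840 and 0 in Etv2KO_DP, so it was at or near 0 in both knockout libraries. A region was called when its adjusted p was below 0.05 in limma's moderated test with Benjamini-Hochberg adjustment over 167573 regions. Differences were taken between means of log2(value + 5), so those of weakly open regions come out too small. The Etv2OE_SP replicates differed most, with a chi-square of 4.34 per degree of freedom against 1.15 to 1.22 in the other groups. Of the defining markers some differed between groups and others overlapped, and their part in the results was not tested. The gene-end region of Cdh5 held 31.1 and 15.3 in WT_DP, 101 and 78.3 in WT_SP and 489 and 819 in Etv2OE_SP, and that of Tbx6 held 670 and 640.4, 224 and 234, and 81.7 and 80.1. That of Pdgfra, the gene of the second sort marker, held 142 and 167 in WT_DP and 163 and 149.7 in WT_SP, and that of Kdr, which encodes FLK1, held 467 and 480 in WT_SP and 380 and 519 in Etv2OE_SP. That of Mesp1 held 373 and 397 in WT_DP, 368 and 319 in WT_SP and 193 and 184 in Etv2OE_SP.

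The wildtype sorts came first: how does FLK1+ mesoderm without PDGFRalpha differ from that with it? In WT_SP, 65 of the 1175 tested guidance regions rose against WT_DP and 159 fell. That is 5.53% and 13.5%, beside 6.20% and 8.12% of all regions. The median guidance region lay 0.10 below the median of all regions on the log2 scale. Falls were spread over Slit and Robo genes (50 of 274), semaphorins of classes 4 to 7 (28 of 222), plexins (24 of 171), EphB (17 of 134) and EphA receptors (12 of 90). Plexins also had 21 rises, and the ephrin-B ligands had 10 rises and 7 falls of 60. For the ephrin-B ligands this order was not stable: median-of-ratios or TMM rescaling gave 8 of each, and rescaling on the 10000 highest regions gave 6 rises and 14 falls. On that last scaling rises made up 15.96% of guidance calls, against 29.0% as deposited. Over all regions they made up 25.8% and 43.3%. Without WT_DP replicate 1 or 2 there were 16 or 11 rises and 55 falls each. Without WT_SP replicate 1 or 2 there were 10 or 13 rises and 63 or 71 falls. Of the called regions that the rule for named regions chose here, those of Efna1, Efnb2, Sema3d, Sema3e (outside the gene), Epha2 and Ephb1 lost the call without at least 1 library, with adjusted p from 0.051 (Ephb1, without WT_DP replicate 2) to 0.25 (Efna1, without WT_SP replicate 2).

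**Figure D1:**
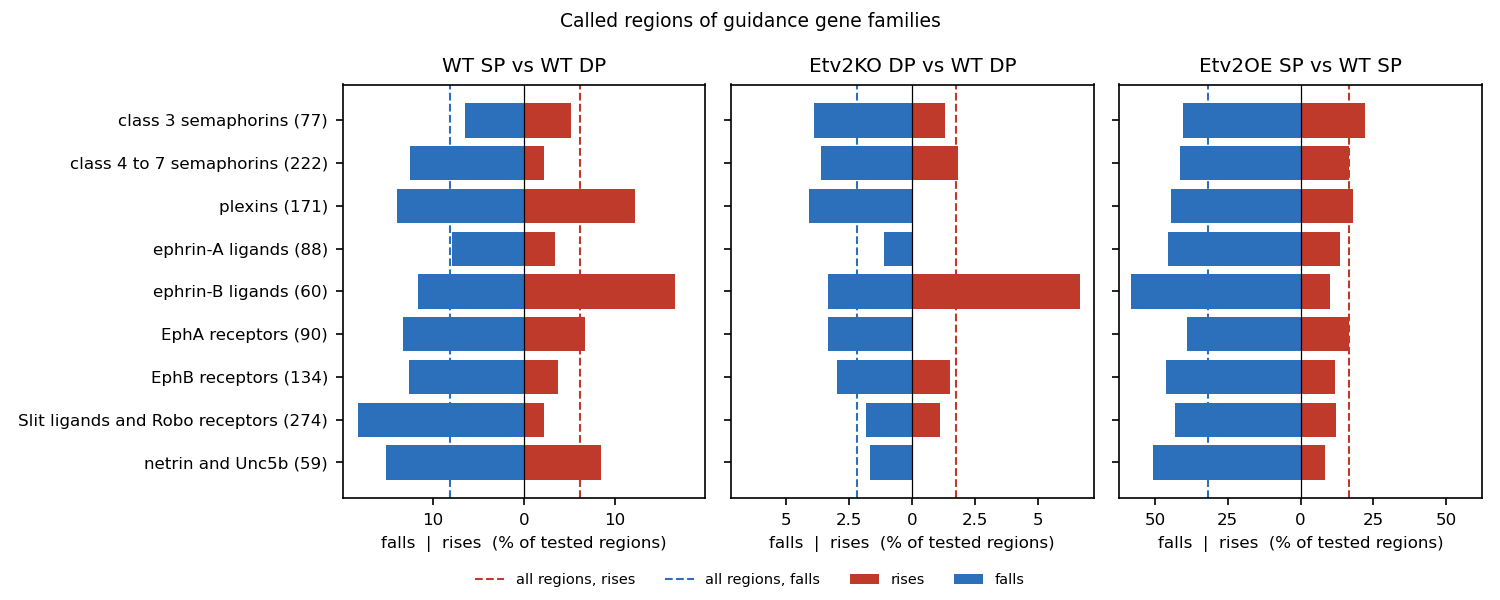
Percent of tested regions called as falls (left of 0) and rises (right of 0) in each guidance family for 3 comparisons, with the number tested in brackets. Dashed lines give all regions (for WT_SP vs WT_DP 6.20% rises and 8.12% falls). The horizontal scales differ between panels. Slit and Robo genes had 18.2% falls in WT_SP, and every family had more falls than rises in Etv2OE_SP.

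Slit and Robo genes had the most falls of the 9 families in WT_SP. Slit1, a secreted repellent, had 15 falls and 1 rise among 39 regions, Slit3 14 and 3 among 113, and Robo1, a Slit receptor, 13 and 1 among 61. Slit2 had 4 falls and Robo2 4 falls and 1 rise. The largest fall of this family was inside Robo1 at chr16:72693906-72694306, with 109 and 116 normalized reads in WT_DP, 16.3 and 28.7 in WT_SP, 132 and 91.5 in Etv2KO_DP and 24.1 and 11.8 in Etv2OE_SP. Both double positive groups were high and both single positive groups low, with no overlap. For the 2 wildtype groups the rule for named regions had required this. The log2 change in WT_SP was -2.13 (SE 0.31, adjusted p = 0.0012, limma).

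A region in the opposite direction lay inside Slit3 at chr11:35225557-35225957. Its values were 25.2 and 18.9 in WT_DP, 70.2 and 73.4 in WT_SP, 42.8 and 39.2 in Etv2KO_DP and 13.1 and 21.0 in Etv2OE_SP. It was highest in WT_SP and rose there by 1.52 (SE 0.25, adjusted p = 0.0025, limma).

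Among semaphorins, which are the ligands of plexins, the rise with the widest range lay 25.7 kb outside Sema6a at chr18:47219310-47219710; Sema6a is a transmembrane ligand of A-type plexins. It held 3.88 and 3.59 normalized reads in WT_DP, 3.36 and 8.32 in Etv2KO_DP, 45.8 and 36.7 in WT_SP and 527 and 520.3 in Etv2OE_SP. It was near empty in both double positive groups, and the log2 change in WT_SP was 2.40 (SE 0.26, adjusted p = 0.00032, limma). Sema6d, a related ligand, had 8 falls and 1 rise among 38 regions. Its region at chr2:124258112-124258512 held 95.1 and 115 in WT_DP, 27.5 and 14.9 in WT_SP, 115 and 101 in Etv2KO_DP and 14.6 and 13.1 in Etv2OE_SP. It fell by 2.11 in WT_SP (SE 0.26, adjusted p = 0.00054, limma). Etv2KO_DP was high like WT_DP and Etv2OE_SP low like WT_SP, and the rule had required that the wildtype sorts not overlap. Sema5b also had 8 falls, with 0 rises among 34 regions.

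Class 3 semaphorins, the secreted members, had 4 rises and 5 falls among 77 tested regions. A region 38.0 kb outside Sema3e, the Plxnd1 ligand, at chr5:13987108-13987508 went from 8.74 and 9.88 in WT_DP to 25.4 and 33.7 in WT_SP, and stood at 6.72 and 8.32 in Etv2KO_DP and 85.3 and 114 in Etv2OE_SP. It rose by 1.26 in WT_SP (SE 0.26, adjusted p = 0.0073, limma). A region 78.4 kb outside Sema3d at chr5:12667130-12667530 fell by 1.26 (SE 0.27, adjusted p = 0.010, limma), from 42.7 and 40.4 to 20.4 and 9.91.

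Plexin regions moved both ways. Plxna1 had 5 rises and 4 falls, Plxnc1 5 and 3, Plxna4 4 and 10, Plxna2 3 and 6, and Plxnd1 3 and 0. Inside Plxna4, which forms semaphorin receptors with neuropilins, the region at chr6:32533946-32534346 held 7.77 and 8.08 in WT_DP, 62.1 and 41.6 in WT_SP, 7.56 and 8.32 in Etv2KO_DP and 38.7 and 70.9 in Etv2OE_SP. It was low in both double positive groups and rose by 2.11 in WT_SP (SE 0.30, adjusted p = 0.0012, limma). Inside Plxna2 the region at chr1:194731904-194732304 fell by 1.94 (SE 0.28, adjusted p = 0.0012, limma), from 41.7 and 40.4 to 6.11 and 7.93.

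Ephrins and their receptors held the largest rise of all guidance regions in this comparison. It lay inside Ephb2, a receptor of B-type ephrins, at chr4:136652938-136653338, and held 7.77 and 10.8 normalized reads in WT_DP, 5.88 and 15.5 in Etv2KO_DP, 126 and 101 in WT_SP and 322 and 703 in Etv2OE_SP. Double positive cells were low with or without Etv2, wildtype single positive cells were intermediate and induced cells were highest. The log2 change in WT_SP was 3.06 (SE 0.36, adjusted p = 0.00047, limma). The same gene had 6 falls in WT_SP. Ephb1 had 3 rises and 11 falls, and its region at chr9:102235354-102235754 held 63.1 and 72.8 in WT_DP against 17.3 and 2.97 in WT_SP, a log2 change of -2.45 (SE 0.43, adjusted p = 0.0037, limma).

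Of the EphA receptors, Epha2 had 5 rises and 0 falls and Epha4 1 rise and 4 falls. Inside Epha2, the ephrin-A1 receptor, chr4:141310319-141310719 rose by 1.21 (SE 0.22, adjusted p = 0.0044, limma), from 83.5 and 79.9 to 205 and 187. Epha4 binds ephrins of both classes, and its region at chr1:77463266-77463666 held 40.8 and 54.8 in WT_DP, 41.1 and 57.0 in Etv2KO_DP, 5.09 and 8.92 in WT_SP and 7.29 and 6.57 in Etv2OE_SP. The 2 single positive groups lay together at the low end, and the region fell by 2.14 in WT_SP (SE 0.28, adjusted p = 0.00074, limma).

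Efnb2, the arterial ligand of Ephb4, had 6 rises and 1 fall among 27 regions in WT_SP. The largest rise was 33.4 kb outside the gene at chr8:8583618-8584018, with 10.7 and 11.7 in WT_DP, 48.9 and 46.6 in WT_SP, 21.8 and 11.9 in Etv2KO_DP and 23.3 and 70.9 in Etv2OE_SP. It rose by 1.70 (SE 0.39, adjusted p = 0.013, limma), and the Etv2OE_SP replicates lay on either side of WT_SP. Efnb1 had 3 rises and 6 falls. Its region 42.8 kb outside the gene at chrX:99191643-99192043 fell by 1.54 (SE 0.23, adjusted p = 0.0015, limma), from 83.5 and 69.2 to 27.5 and 18.8. Among A-type ephrins, a region 46.4 kb outside Efna5 at chr17:62927488-62927888 fell by 1.93 (SE 0.28, adjusted p = 0.0012, limma), from 63.1 and 46.7 to 10.2 and 10.9. Inside Efna1, chr3:89277279-89277679 rose by 0.91 (SE 0.26, adjusted p = 0.039, limma; 0.062 with a pseudocount of 1), from 109.7 and 107 to 187 and 229.99.

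Unc5b, the endothelial netrin receptor, had 5 rises and 3 falls and Ntn1, its ligand, 0 rises and 6 falls. The rise inside Unc5b at chr10:60800625-60801025 went from 86.4 and 82.6 in WT_DP to 241 and 238 in WT_SP, with 138 and 134 in Etv2KO_DP and 206 and 292 in Etv2OE_SP. The fall 34.2 kb outside it at chr10:60865597-60865997 went from 211 and 195 to 77.4 and 73.4, with 177 and 184 in Etv2KO_DP and 20.4 and 30.2 in Etv2OE_SP. The log2 changes were 1.45 (SE 0.19) and -1.37 (SE 0.20), with adjusted p = 0.00074 and 0.0014 in limma. Regions of 1 gene thus moved apart between the same libraries.

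Loss of Etv2 was compared within the double positive sort. Of 1175 guidance regions, 14 rose in Etv2KO_DP against WT_DP and 34 fell, which is 1.19% and 2.89% beside 1.72% and 2.21% of all regions. Both shares are near the background. Plexins had 7 falls and 0 rises of 171, semaphorins of classes 4 to 7 had 8 falls and 4 rises, and the ephrin-B ligands had 4 rises and 2 falls of 60, all but 1 of the 6 at Efnb2. Rises made up 29.2% of guidance calls as deposited and 42.6%, 44.2% and 43.1% after median-of-ratios, TMM and 10000-highest rescaling. Over all regions they made up 43.8% of calls as deposited and 52.7%, 54.7% and 54.2% after these rescalings. Without WT_DP replicate 1 or 2 there were 0 or 1 rises and 2 or 0 falls, and without Etv2KO_DP replicate 1 or 2 there were 0 rises and 1 fall each. DESeq2 on the whole reads gave 7 rises and 5 falls. Each of the 16 called regions chosen by the rule for named regions in this comparison lost the call without at least 1 library: 12 and 13 did so without WT_DP replicates 1 and 2, and 14 each without Etv2KO_DP replicate 1 or 2.

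At Efnb2 a rise lay 64.2 kb outside the gene, at chr8:8552860-8553260, with 15.5 and 30.5 normalized reads in WT_DP, 80.6 and 74.9 in Etv2KO_DP, 79.4 and 84.3 in WT_SP and 10.9 and 21.0 in Etv2OE_SP. The knockout libraries lay near WT_SP and far above WT_DP, and the log2 change was 1.61 (SE 0.30, adjusted p = 0.011, limma). Inside the gene chr8:8647891-8648291 fell by 1.19 (SE 0.28, adjusted p = 0.039, limma; 0.056 with a pseudocount of 1 and 0.14 in DESeq2), from 31.1 and 44.0 to 9.24 and 19.0. Within 2.5 Mb of the rising region the 279 regions outside the listed guidance genes had a median 0.24 above that of all regions in the knockout line.

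Slit1 had 4 falls in the knockout and 0 rises. At chr19:41639764-41640164, inside the gene, the values were 48.5 and 73.7 in WT_DP, 17.6 and 11.9 in Etv2KO_DP, 16.3 and 13.9 in WT_SP and 7.29 and 5.26 in Etv2OE_SP, and the region fell by 1.73 (SE 0.28, adjusted p = 0.0058, limma). WT_DP was the high group there. Robo1 held a region that moved the other way in the knockout, at chr16:72680660-72681060. It held 30.1 and 34.1 in WT_DP, 95.7 and 111 in Etv2KO_DP, 20.4 and 12.9 in WT_SP and 8.02 and 6.57 in Etv2OE_SP. It rose by 1.54 in the knockout (SE 0.25, adjusted p = 0.0056, limma), the highest group.

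A region 62.0 kb outside Sema6a at chr18:47432967-47433367 was likewise highest in Etv2KO_DP. It held 30.1 and 35.03 in WT_DP, 96.6 and 134 in Etv2KO_DP, 19.3 and 13.9 in WT_SP and 9.48 and 18.4 in Etv2OE_SP. It rose by 1.67 (SE 0.28, adjusted p = 0.0074, limma). The promoter region of Sema5b, a transmembrane semaphorin, named after its values were seen, at chr16:35540951-35541351 fell by 0.70 (SE 0.14, adjusted p = 0.018, limma), from 742 and 737 to 484 and 425. Without 1 library its adjusted p was 0.098 to 0.24, and DESeq2 gave 0.059. A neighbouring region inside Sema5b at chr16:35546920-35547320 fell by 1.19 (SE 0.26, adjusted p = 0.027, limma), from 49.5 and 57.5 to 23.5 and 17.8. The latter was not called by DESeq2 (adjusted p = 0.10).

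Ephb2 had 2 falls in the knockout. At chr4:136783803-136784203, inside the gene, it held 81.5 and 85.3 in WT_DP, 21.8 and 32.1 in Etv2KO_DP, 76.3 and 72.4 in WT_SP and 25.5 and 24.96 in Etv2OE_SP, a log2 change of -1.49 (SE 0.22, adjusted p = 0.0032, limma). Both wildtype groups were high. Ephb1 had a rise at chr9:102248519-102248919 of 1.63 (SE 0.36, adjusted p = 0.027, limma; 0.062 with a pseudocount of 1), from 24.3 and 18.0 to 65.5 and 86.8. Inside Efna5, chr17:62735942-62736342 fell by 1.48 (SE 0.24, adjusted p = 0.0049, limma), from 53.4 and 69.2 to 19.3 and 17.8. The region 91.0 kb outside Epha3 at chr16:63452324-63452724 fell by 1.04, that inside Plxna4 at chr6:32237534-32237934 by 1.21, that inside Sema3a at chr5:13358789-13359189 by 1.19 and that 13.7 kb outside Ntn1 at chr11:68400281-68400681 by 0.83, with adjusted p between 0.015 and 0.043 in limma. Inside Sema3f, a ligand of neuropilin 2, chr9:107704344-107704744 rose by 0.97 (SE 0.21, adjusted p = 0.023, limma), from 89.3 and 76.3 to 168 and 166. DESeq2 called none of these last 5.

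Etv2 induction was compared within the single positive sort. In Etv2OE_SP, 172 of 1175 guidance regions rose against WT_SP and 519 fell. These were 14.6% and 44.2%, beside 16.6% and 31.9% of all regions. Calls in both directions were found at 42 of the 52 genes. That count grows with the number of regions per gene and was not taken over all genes, so it is not a trait of guidance genes. The median of all regions was -0.22 as deposited and near 0 (-0.0052) after TMM rescaling, and the median guidance region lay 0.28 below that of all. After TMM rescaling 210 guidance regions rose and 425 fell, 17.9% and 36.2% beside 23.2% and 25.4% of all regions. Rises then made up 47.8% of calls over all regions in place of 34.2%. Ephrin-B ligands had 35 falls and 6 rises of 60, EphB receptors 62 and 16 of 134, Slit and Robo genes 118 and 33 of 274, and class 3 semaphorins 31 and 17 of 77. Falls outnumbered rises in all 9 families as deposited and under each of the 4 other scalings. Regions of other lists moved as well. Summed signal over 12 endothelial marker genes was 17402 and 17216 in WT_SP and 23021 and 32404 in Etv2OE_SP. That over 8 paraxial and early mesoderm genes was 8583 and 8496 against 4747 and 6035. That over 8 cardiac genes was 20308 and 19730 against 9321 and 13643, and 60% of their 150 regions fell. Neural marker sums were lower too (12599 and 12154 against 10419 and 11090). Those of blood (15547 and 15228 against 11832 and 17989) and endoderm markers (8746 and 8464 against 7611 and 9779) overlapped. The part of these lists in the guidance changes was not tested. In bulk libraries, fewer cells with a region open and less opening in each cell cannot be told apart.

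**Figure D2:**
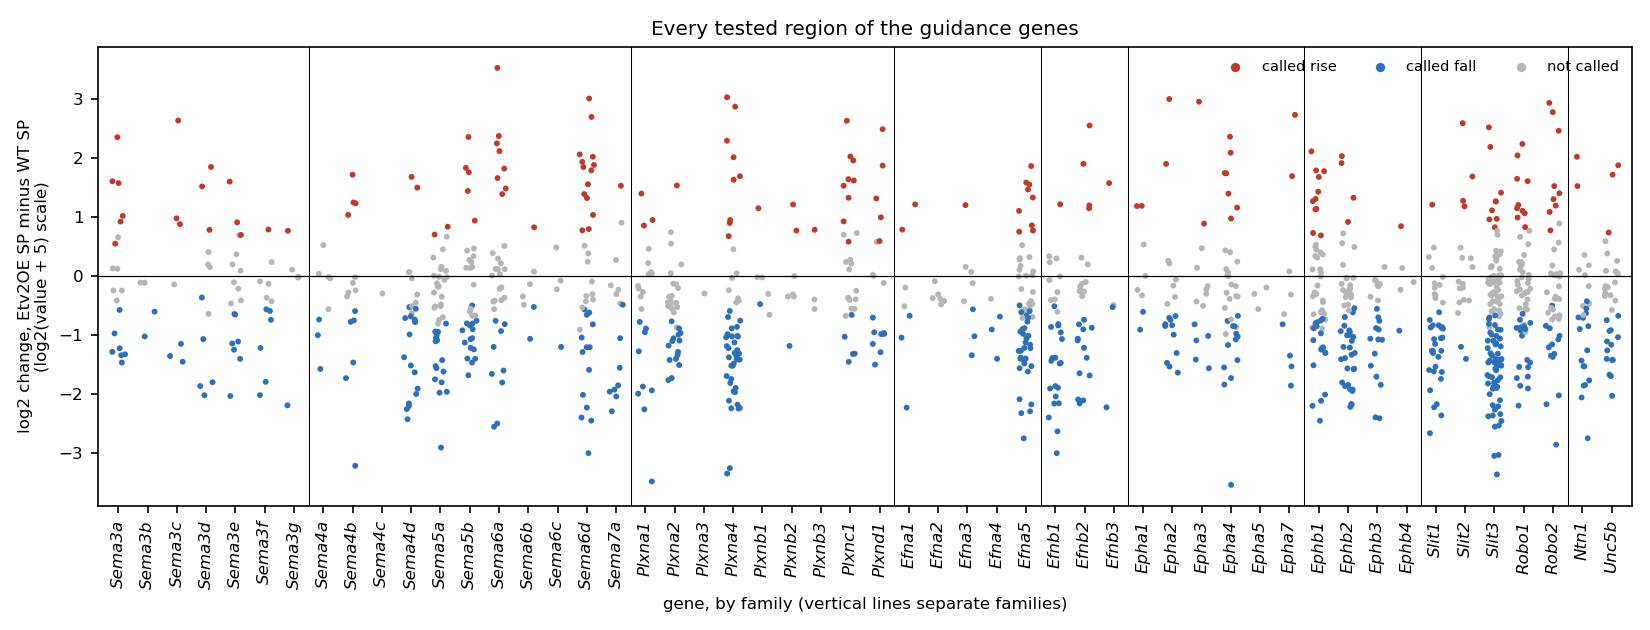
Log2 change in Etv2OE_SP minus WT_SP (log2(value + 5) scale) of every tested region, by guidance gene, with families separated by vertical lines; red points rose, blue points fell and grey points were not called. Most genes have points of both colours, and blue points are more numerous (519 against 172).

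The largest rises were at regions with low values in the other groups. The Sema6a region 25.7 kb outside the gene, given above, rose from 45.8 and 36.7 to 527 and 520.3, a log2 change of 3.52 (SE 0.26, adjusted p = 4.7e-06, limma). Inside Sema3c, a secreted semaphorin of the cardiac outflow tract, chr5:17680945-17681345 held 9.71 and 11.7 in WT_DP, 19.3 and 22.8 in WT_SP, 7.56 and 7.13 in Etv2KO_DP and 206 and 118 in Etv2OE_SP. It rose by 2.63 (SE 0.28, adjusted p = 2.4e-05, limma), with replicate 1 the higher of the pair. Inside Plxna4, chr6:32510910-32511310 held between 9.16 and 15.5 in the 6 other libraries and 98.5 and 130 in Etv2OE_SP, a rise of 3.02 (SE 0.26, adjusted p = 8.0e-06, limma).

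Inside Robo2, a Slit receptor, chr16:74900610-74901010 held 4.85 and 11.7 in WT_DP, 14.2 and 7.93 in WT_SP, 8.40 and 11.9 in Etv2KO_DP and 128 and 104 in Etv2OE_SP. It rose by 2.93 (SE 0.32, adjusted p = 2.7e-05, limma). Inside Epha2, chr4:141315920-141316320 held 20.4 and 17.1 in WT_DP, 28.5 and 32.7 in WT_SP, 11.8 and 7.13 in Etv2KO_DP and 266 and 290 in Etv2OE_SP. Its rise was 2.99 (SE 0.23, adjusted p = 5.4e-06, limma), while 11 other Epha2 regions fell. Inside Efnb2, 6.44 kb from the gene's end, chr8:8623472-8623872 held 12.6 and 9.88 in WT_DP, 25.4 and 23.8 in WT_SP, 6.72 and 8.32 in Etv2KO_DP and 163 and 173 in Etv2OE_SP. It rose by 2.55 (SE 0.23, adjusted p = 1.0e-05, limma), while 13 of the 27 Efnb2 regions fell. The 3 regions share an order, with Etv2OE_SP far above the 6 other libraries.

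Smaller rises started from low counts. Inside Ephb1, chr9:102232050-102232450 held 4.75 to 7.12 normalized reads in the 6 other libraries and 37.9 and 52.6 in Etv2OE_SP. Inside Ntn1, chr11:68253512-68253912 went from 5.09 and 9.91 in WT_SP to 29.9 and 65.7. A region 78.1 kb outside Efna5 at chr17:62959182-62959582 went from 8.14 and 3.97 to 54.7 and 21.0. Their log2 changes were 2.11, 2.02 and 1.86 (SE 0.28, 0.43 and 0.39), with adjusted p = 8.6e-05, 0.0022 and 0.0019 in limma.

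The largest falls were at regions with high values in the other groups. Inside Epha4, chr1:77427292-77427692 held 133 and 168 in WT_DP, 116 and 171 in WT_SP, 107 and 118 in Etv2KO_DP and 4.38 and 11.8 in Etv2OE_SP, a log2 change of -3.54 (SE 0.28, adjusted p = 5.7e-06, limma). Plxna1 encodes a semaphorin co-receptor, and its region at chr6:89321540-89321940 held 499 and 466, 311 and 277, 485 and 383, and 8.02 and 49.9 in the same order of groups, a log2 change of -3.48 (SE 0.46, adjusted p = 8.7e-05, limma). Inside Slit3, chr11:35508040-35508440 held 562 and 596, 439 and 447, 409.7 and 399, and 16.05 and 85.4, a log2 change of -3.36 (SE 0.45, adjusted p = 0.00010, limma). In the last 2, Etv2OE_SP replicate 2 kept several times the signal of replicate 1, and both lay below every other library.

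Sema4b, a transmembrane semaphorin, had a region 5.59 kb outside it at chr7:80181083-80181483 that fell from 269.7 and 292 to 13.1 and 47.3, by 3.21 (SE 0.35, adjusted p = 2.9e-05, limma). Efnb1 had one 31.4 kb outside it at chrX:99180213-99180613 that held 274 and 248 in WT_DP, 122 and 130 in WT_SP, 230.1 and 209 in Etv2KO_DP and 5.84 and 19.7 in Etv2OE_SP, a log2 change of -3.0 (SE 0.30, adjusted p = 1.7e-05, limma). Double positive cells were highest there. Inside Ntn1, chr11:68373322-68373722 fell by 2.75 (SE 0.28, adjusted p = 1.9e-05, limma), from 193 and 175 to 14.6 and 35.5. Inside Efna5, chr17:62711777-62712177 fell by 2.75 (SE 0.24, adjusted p = 7.7e-06, limma), from 71.2 and 64.4 to 5.11 and 6.57. Ephb1 at chr9:102216839-102217239 fell by 2.45, from 178 and 195 to 16.8 and 51.2. Sema3g, a class 3 semaphorin of vessels, at chr14:31219412-31219812 fell by 2.19, from 55.0 and 77.3 to 11.7 and 9.20.

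**Figure D3:**
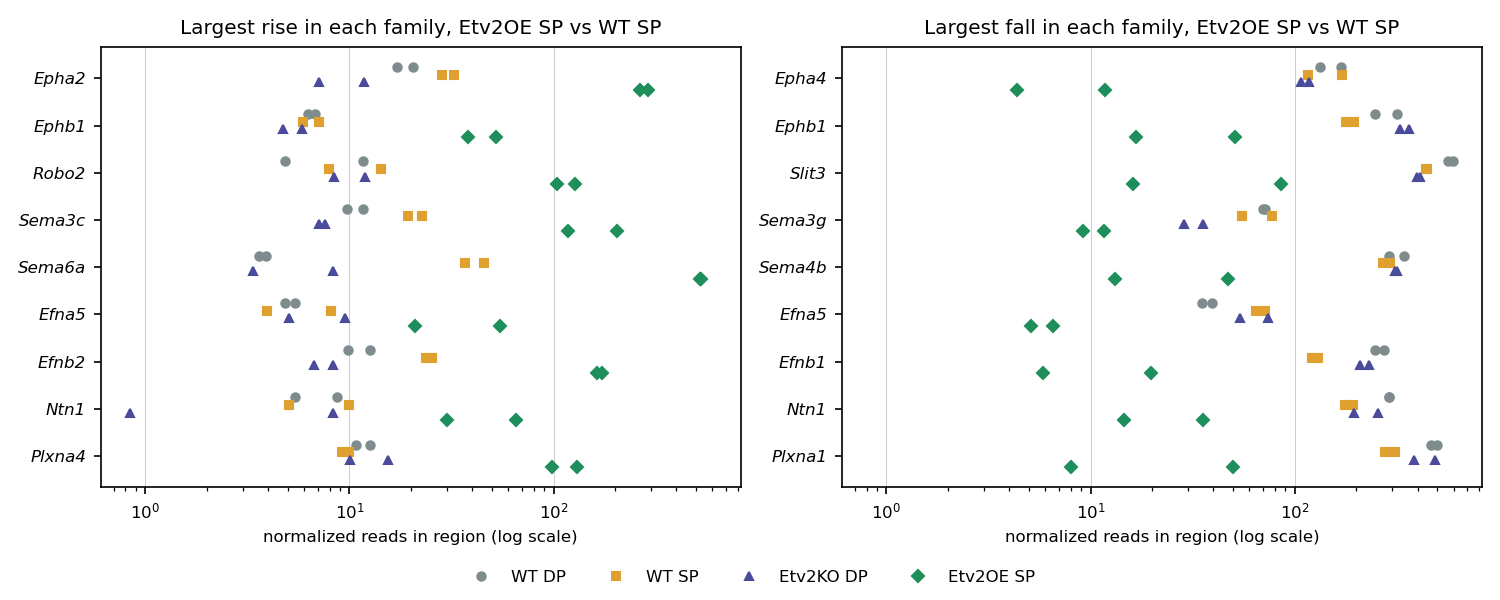
Normalized reads per region (log axis) in each of the 8 libraries for the largest rise (left) and the largest fall (right) of each guidance family in Etv2OE_SP vs WT_SP; each marker is 1 library. Etv2OE_SP lies right of all 6 other libraries in the left panel (Epha2 266 and 290) and left of them in the right panel (Epha4 4.38 and 11.8). The regions were chosen to have no overlap between Etv2OE_SP and WT_SP.

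Replicate 2 of Etv2OE_SP was the higher in 345 of the 519 guidance falls and in 111 of the 172 rises, and in 110603 of all 167573 regions. The median log2 difference between the replicates was 0.25 over guidance falls and 0.20 over all regions. Without Etv2OE_SP replicate 1 or 2 there were 185 or 173 rises and 536 or 598 falls. Without WT_SP replicate 1 or 2 there were 134 or 135 rises and 396 or 392 falls.

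Promoter regions were counted apart. Of the 44 guidance regions on a RefSeq promoter window, from 37 genes, 1 rose (Epha2) and 1 fell (Sema6c) in WT_SP, and 0 rose and 2 fell (Sema4a and Sema5b) in Etv2KO_DP; these were named after their values were seen. Such counts are near the background, since 3.21% and 1.86% of all gene-end regions rose and fell in WT_SP and 0.86% and 2.55% in Etv2KO_DP. Each of these 4 calls was lost without any 1 of the libraries compared, with adjusted p from 0.074 (Sema6c) to 0.36 (Sema4a) in limma. In Etv2OE_SP 2 rose and 14 fell. That is 4.55% and 31.8%, while 15.0% and 44.7% of the other guidance regions rose and fell. Over the whole table the gene-end regions had 6.76% rises and 20.6% falls in Etv2OE_SP against 17.3% and 32.7% of regions inside genes. In WT_SP, falls were 15.5% of guidance regions inside genes and 8.06% of all regions inside genes.

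**Figure D4:**
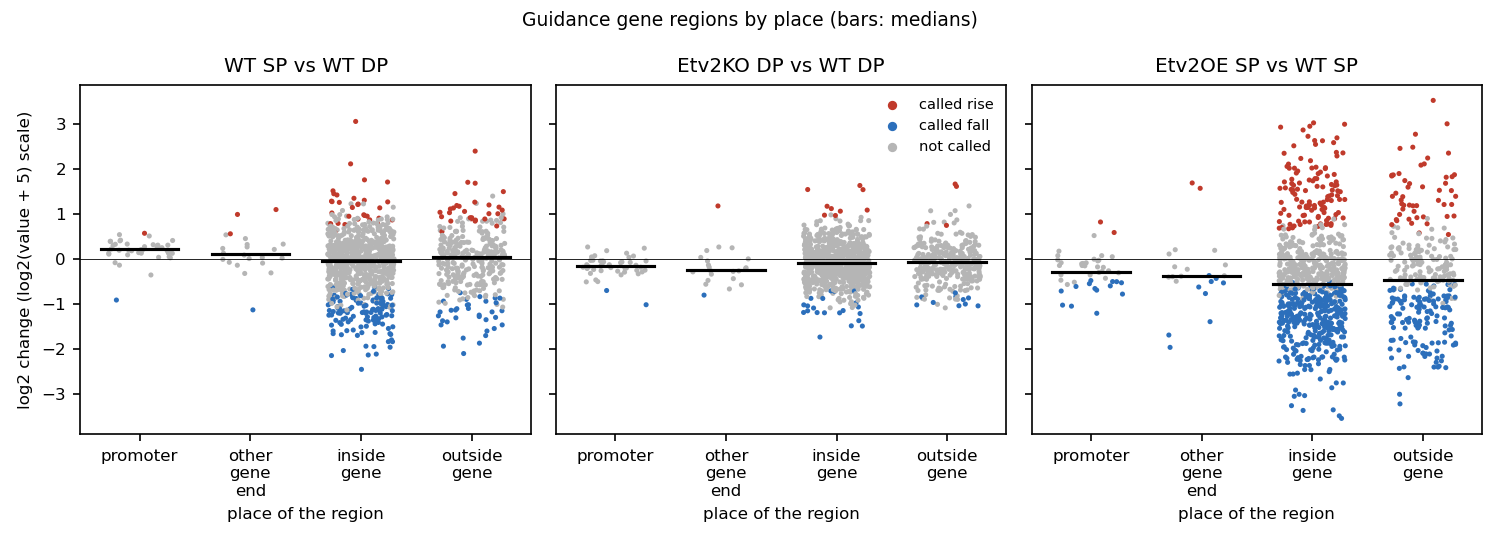
Log2 change (log2(value + 5) scale) of each tested guidance region by place for 3 comparisons; points are regions, coloured by call, and bars are medians. In Etv2OE_SP the promoter median was -0.29 and that of regions inside genes -0.55.

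The Plxnd1 promoter region, whose upstream letters are printed above, was at chr6:115994847-115995247. It held 296 and 294 normalized reads in WT_DP, 320 and 333 in WT_SP, 288 and 253 in Etv2KO_DP and 438 and 556 in Etv2OE_SP, and rose by 0.59 under induction (SE 0.16, adjusted p = 0.010, limma). With WT_SP and Etv2OE_SP fitted alone the adjusted p was 0.056, and without WT_SP replicate 1 or 2 it was 0.076 or 0.055. The Sema3e promoter region at chr5:14025102-14025502 moved the other way, with 295 and 272, 398 and 352, 250.2 and 253, and 213 and 261. It fell by 0.65 in Etv2OE_SP (SE 0.16, adjusted p = 0.0057, limma; 0.069 without WT_SP replicate 1). Receptor and ligand of this pair thus had promoter changes of opposite sign against WT_SP, and Etv2OE_SP lay above all 6 other libraries at Plxnd1. At Sema3e 1 Etv2OE_SP library was the lowest of the 8 and the other lay among the rest. Beyond the promoters, regions of both genes went both ways in Etv2OE_SP, with 5 rises and 8 falls at Plxnd1 and 3 and 7 at Sema3e. Summed over its regions, Plxnd1 was not called (0.30, adjusted p = 0.12, limma) and Sema3e fell by 0.43 (adjusted p = 0.0096, limma).

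Efnb2 and Ephb4 had high values at their promoter regions in every library. The Efnb2 region at chr8:8661111-8661511 held 1123 and 1031 in WT_DP, 1339 and 1181 in WT_SP, 1189.8 and 1069.6 in Etv2KO_DP and 921 and 1196 in Etv2OE_SP. The Ephb4 region at chr5:137349852-137350252 held 876 and 822, 995 and 952, 798 and 745, and 800.2 and 1022. Their log2 changes in Etv2OE_SP were -0.26 (SE 0.16, adjusted p = 0.19) and -0.11 (SE 0.15, adjusted p = 0.59) in limma; the second turned positive under the other scalings (0.14 with TMM). The Unc5b promoter region at chr10:60831396-60831796 was higher in WT_SP (776 and 736) than in WT_DP (537 and 519), with a log2 difference of 0.51 (SE 0.17) and an adjusted p of 0.065 in limma that became 0.036 with TMM rescaling. The Sema3c region (chr5:17574444-17574844) and the gene-end region of highest signal at Robo1 (chr16:72027846-72028246) were not called in any of the 3 comparisons, with log2 changes between -0.23 and 0.20 and between -0.56 and 0.21.

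Other promoter calls under induction, named after their values were seen, included a rise at Sema6b (538 and 444 to 665 and 1135, log2 0.82, SE 0.22, adjusted p = 0.0081 in limma). They also included falls at the A-type ephrins Efna1 (364 and 353 to 134 and 218, -1.04, SE 0.20), Efna3 (331 and 296 to 124 and 185, -1.02, SE 0.19) and Efna4 (491 and 472 to 282 and 311, -0.69). Those 3 ephrin genes are neighbours on chromosome 3. Another Efna1 promoter region, at chr3:89279503-89279903, was not called (-0.51, adjusted p = 0.053, limma). Falls were also called at Epha1, Ephb2, Plxnb1, Robo2, Sema5b and both promoter regions of Sema4b. That of Sema4b at chr7:80186846-80187246 fell by 0.78 (adjusted p = 0.00087, limma). A second promoter region of Sema6b, at chr17:56140016-56140416, fell by 0.53 (SE 0.19, adjusted p = 0.036, limma), from 149.6 and 168 to 123 and 95.9, so the Sema6b promoter regions went opposite ways. That fall was lost under 9 of 15 alternatives, with adjusted p up to 0.23. Epha2, a receptor of Efna1, fell at its promoter (273 and 285 to 165 and 172, -0.71, SE 0.16) although a region inside it was among the largest rises. A start inside Sema6c went from 176 and 169 in WT_DP to 88.5 and 90.2 in WT_SP and 39.4 and 32.8 in Etv2OE_SP, with 189.8 and 149.8 in Etv2KO_DP. It fell in both comparisons of single positive cells (-0.91 and -1.20, adjusted p = 0.0088 and 0.00032, limma), which share WT_SP.

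**Figure D5:**
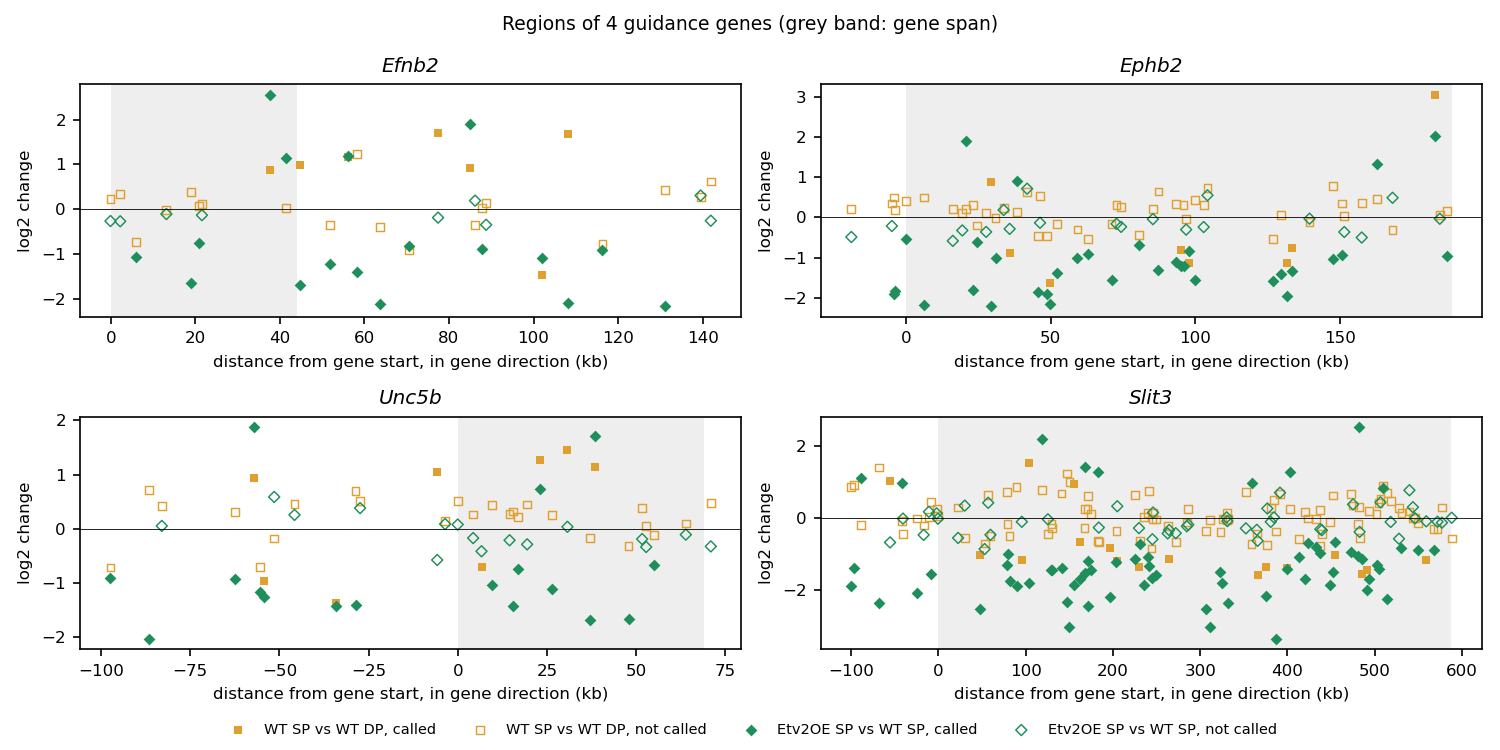
Log2 change of each tested region against its distance from the gene start, in the direction of the gene (kb), for Efnb2, Ephb2, Unc5b and Slit3; squares are WT_SP minus WT_DP, diamonds Etv2OE_SP minus WT_SP, filled where called, and the grey band is the gene span. Each of the 4 genes had called regions of both signs in both comparisons, and falls were the more numerous in Etv2OE_SP.

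Signal was also summed over all regions of each gene. In WT_SP 0 guidance genes rose and 3 fell, beside 4.41% and 2.90% of 18503 genes: Slit1 by 0.66 (SE 0.16), Robo1 by 0.50 (SE 0.14) and Ntn1 by 0.49 (SE 0.14), with adjusted p = 0.015, 0.035 and 0.044 in limma. Without any 1 of the 4 libraries 0 genes were called, and rescaling on the 10000 highest regions gave 25 falls. In Etv2KO_DP 0 of 52 were called (2.08% and 5.27% of all genes were), by limma or edgeR; DESeq2 called 1 rise. In Etv2OE_SP 1 gene rose and 25 fell, beside 9.40% and 24.4% of all genes. The rise was Plxnc1, the receptor of Sema7a, by 0.49 (SE 0.13, adjusted p = 0.0079; 0.074 with WT_SP and Etv2OE_SP fitted alone). The largest falls were Slit1 by 1.04 (SE 0.16, adjusted p = 5.9e-05), Ntn1 by 1.02 (SE 0.14, adjusted p = 2.8e-05) and Efnb3 by 0.89 (SE 0.14, adjusted p = 0.00010) in limma. This balance shifted with the scaling and when 1 library was left out. TMM gave 8 rises and 16 falls, 15.4% and 30.8% of guidance genes, beside 29.8% and 15.8% of all genes. As deposited the guidance shares were 1.92% and 48.1%. On both scalings guidance genes had fewer rises and more falls than all genes. Between Etv2OE_SP and Etv2KO_DP 5 gene sums rose and 18 fell, beside 28.0% and 18.5% of all genes.

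2 comparisons that share no library were set side by side. Both were taken from 1 fit of all 8 libraries with the same spread estimate per region, so their calls are not independent. Of the 65 guidance regions that rose in WT_SP against WT_DP, 37 (56.9%) also rose in Etv2OE_SP against Etv2KO_DP and 15 fell. Over all regions these shares were 55.7% and 17.5%. Of the 159 falls, 150 (94.3%) fell there too and 1 rose, beside 89.0% and 1.03% over all regions. Seen from the other comparison, in which 25.2% and 32.9% of all regions rose and fell, the 37 were 16.2% of its 228 guidance rises and the 150 were 27.6% of its 544 falls. Over all regions these overlaps were 13.7% of the rises and 22.0% of the falls. Both contrasts set single against double positive cells, and the second also differs in line, genotype and doxycycline. Etv2 loss and Etv2 induction share no library either, but come from the same fit. Of the 34 guidance falls in Etv2KO_DP 24 (70.6%) fell and 4 (11.8%) rose in Etv2OE_SP. Of the 14 rises 9 (64.3%) fell and 1 (7.14%) rose. Over all regions 47.4% of the knockout falls fell under induction and 9.55% rose, and 35.8% of the knockout rises fell and 10.1% rose. Of all tested guidance regions 44.2% fell under induction, called in the knockout or not. These knockout calls are few and, as given above, were not stable when 1 library was left out.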

How the data were processed

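ATAC-seq libraries of sorted day 4 mouse embryoid body cells (8 libraries, 2 in each of 4 groups) were analysed from 1 deposited table of 168842 regions. The submitters' processing notes name Bowtie2, MACS2, DiffBind 3.14.1 and the build mm10. The authors' deposited values are a normalized signal: in each library they were whole multiples of 1 number (100% of values, tolerance 0.01), so they were taken as reads per region divided by a library factor, and whole reads were recovered. Regions were assigned to the nearest protein-coding gene span of the RefSeq table for mm10. Regions whose 8 values averaged 10 or more (99.2%) were tested as log2(value + 5) with limma 3.58.1 (R 4.3.3), in 1 fit of 4 group means with an intensity trend, two-sided, with Benjamini-Hochberg adjustment over all regions. Sums over a gene's regions were tested likewise over 18503 genes. Scripts were tested on simulated data. The guidance genes and lists were chosen with earlier results of these data known. The rule for named regions took, in each family and comparison, the called region with the largest rise and with the largest fall whose libraries did not overlap, the strongest gene-end region of 8 vascular guidance genes (Slit2 had none within 1 kb), and the 3 largest called changes of gene sums in each direction; in the list of other guidance genes, the largest called rise and fall. Other promoter regions were named after their values were seen. Alternatives were other pseudocounts, no filter, 4 scalings, the compared groups alone, a replicate block and each library left out. Others were gene sums over regions within 10 kb, and edgeR 4.0.16 and DESeq2 1.42.0 on the whole reads. Promoters are RefSeq windows. The reads carry no molecular identifiers that the labels name. Distal sequences were not analysed here.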

Additional observations from a re-analysis of the deposited data

How the results depend on the processing

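Counts of called guidance regions and genes depended on the fit. With the compared groups alone, WT_SP vs WT_DP gave 227 rises and 299 falls. That was 19.3% and 25.45% of guidance regions, beside 22.35% and 15.5% of all regions. Rises were 43.2% of guidance calls there and 59.05% of all calls. Etv2KO_DP vs WT_DP gave 78 and 176, or 6.64% and 14.98%, beside 8.89% and 13.1% of all regions. DESeq2 gave 32 and 103, and 7 and 5 (58.3% rises). The first were 2.72% and 8.77%, beside 3.02% and 4.28% of all regions. The second were 0.60% and 0.43%, beside 0.90% and 0.88%. With a pseudocount of 1, 19 fell in Etv2KO_DP (1.62%, beside 1.58% of all regions). Of the 65 rises in WT_SP, 40 lay within 10 kb of the gene, a subset of the same calls and not another fit. Median-of-ratios, TMM, 10000-highest and quantile scaling gave 23, 23, 25 and 29 rises in Etv2KO_DP. These were 1.96%, 1.96%, 2.13% and 2.47%, beside 2.57%, 2.60%, 3.12% and 3.46% of all regions. Leaving out 1 library gave 10 to 16 rises and 55 to 71 falls in WT_SP, 0 to 1 and 0 to 2 in Etv2KO_DP, 134 to 185 and 392 to 598 in Etv2OE_SP vs WT_SP, and 182 to 292 and 441 to 590 in Etv2OE_SP vs Etv2KO_DP (228 and 544 with all). The causes were not tested.

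For gene sums in WT_SP, median-of-ratios and TMM gave 12 falls each, the 10000 highest 25, quantile 4 rises and 17 falls, and the groups alone 21 and 15 (58.3% rises). In Etv2KO_DP these gave 1 and 2, 1 and 2, 1 and 6, 2 and 8, and 1 and 17, and DESeq2 1 rise. In Etv2OE_SP vs WT_SP they gave 8 and 16, 8 and 16, 5 and 20, 5 and 25, and 0 and 12. Over all genes rises made up 65.8%, 65.4%, 59.4%, 56.4% and 30.15% of calls there, against 27.8% as deposited. In Etv2OE_SP vs Etv2KO_DP, with 5 rises and 18 falls, they gave 10 and 22, 8 and 23, 5 and 31, 7 and 26, and 3 and 9. Over all genes rises made up 70.2%, 68.2%, 51.8%, 63.6% and 56.4% of calls there, against 60.2% as deposited. Leaving out 1 library gave 0 and 0 in WT_SP and Etv2KO_DP, 0 to 4 rises and 12 to 39 falls in Etv2OE_SP vs WT_SP, and 3 to 12 and 10 to 32 against Etv2KO_DP.

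Of the regions chosen by the rule for named regions, signs turned for promoter and gene-end regions that were not called in that comparison. In WT_SP they were Robo1 (-0.26 to 0.082 without 1 library), Sema3c (-0.026, 10000 highest), Ephb4 (-0.025 and -0.028, 10000 highest and quantile), Plxnd1 (-0.076 and -0.000175, likewise) and Efnb2 (-0.0097, quantile). In Etv2KO_DP they were Unc5b (-0.027 to 0.12) and Efnb2 (-0.0087 at the lowest), both without 1 library. In Etv2OE_SP they were Unc5b (-0.17 to 0.33 without 1 library), Sema3c (0.10, 0.099, 0.059 and 0.052 under the 4 scalings) and Ephb4 (0.14, 0.14, 0.098 and 0.014, and -0.28 to 0.070 without 1 library).

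Of the regions chosen by that rule, 13 of 20 called in WT_SP, 0 of 16 in Etv2KO_DP and 20 of 22 in Etv2OE_SP kept the call under every alternative; each of the 16 lost it without at least 1 of the libraries. Same-numbered libraries did not deviate together (correlations -0.0038 to 0.056). A replicate block gave 63 and 157, 13 and 26, and 171 and 516 called regions, and left 1 gene sum called in WT_SP, with Robo1 at adjusted p = 0.063 and Ntn1 at 0.065. Regions held a median of 27 to 42 reads, and the smallest change detectable at that depth was not measured.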

Other observations

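Regions of guidance genes outside the 52 were counted the same way. Of 425 tested regions of 26 other ligands and receptors (neuropilins, netrins, Dcc, Unc5 and further Eph and Robo genes), 17 rose and 43 fell in WT_SP (6.20% and 8.12% of all regions did), 5 and 6 in Etv2KO_DP (1.72% and 2.21%) and 61 and 172 in Etv2OE_SP (16.6% and 31.9%). Nrp1, the co-receptor of class 3 semaphorins and VEGF, held the largest called rise and fall of this list in WT_SP. Its region at chr8:128450740-128451140 rose by 1.40 (SE 0.29, adjusted p = 0.0089, limma), from 3.88 and 3.59 in WT_DP to 20.4 and 15.9, and stood at 74.4 and 122 in Etv2OE_SP; without WT_SP replicate 1 the adjusted p was 0.097. The region 83.2 kb outside it at chr8:128588471-128588871 fell by 2.05 (SE 0.21, adjusted p = 0.00025, limma), from 203 and 195 to 37.7 and 51.5, and stood at 10.9 and 10.5 in Etv2OE_SP. In the knockout Nrp1 rose by 2.02 at chr8:128316357-128316757 (SE 0.28, adjusted p = 0.0018, limma), where the 334 regions within 2.5 Mb that lay outside the listed guidance genes had a median 0.28 above that of all regions. Ntn5, a netrin, fell by 2.35 at its gene end (SE 0.31, adjusted p = 0.0013, limma), from 88.3 and 66.5 to 9.24 and 13.1. Under induction Epha6 rose by 3.35 at chr16:59828928-59829328, from 1.02 and 4.96 to 67.8 and 80.1, and Dscam, a netrin receptor, fell by 3.19 at chr16:96904806-96905206, from 114 and 117 to 7.29 and 9.20 (adjusted p = 1.1e-05 and 2.8e-06, limma).

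A list of 26 further genes held mostly cytoplasmic effectors of these receptors, such as Srgap, Mical and Vav genes, and also the transmembrane Plxdc2. As deposited it had the reverse balance in wildtype cells, with 48 rises and 26 falls among 555 tested regions in WT_SP. These were 8.65% and 4.68%, beside 6.20% and 8.12% of all regions. Other scalings were not counted for this list. In Etv2OE_SP 124 rose and 158 fell, 22.3% and 28.5%, beside 16.6% and 31.9% of all regions. Their median region lay 0.08 above that of all regions under induction, against 0.28 below for the 52 guidance genes. No test of the difference between the lists was run.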
